A study of Mus musculus with 12 samples.

Results

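Ms4a4b, Ms4a4c and Ms4a6b encode membrane proteins of the membrane-spanning 4A (MS4A) family, and were taken by gene symbol from a table of 45796 genes, in which each of the 3 has 1 line. They were chosen by the measured values of these libraries, most directly their fall under imiquimod in wild-type cells, so that fall is described here with no p-value. RNA came from gamma delta T cells carrying the Vg4 and Vd4 receptor chains, isolated from lymph nodes that drain the skin of C57BL/6 mice. Each of 4 groups had 3 libraries. The donors were NF-kB1-deficient and wild-type mice given imiquimod cream, and NF-kB1-deficient and wild-type mice given sham cream. The labels give neither the allele behind the deficiency nor the age of the mice, the dose and duration of the cream, or whether mice were pooled. A deficiency of the whole mouse and one limited to T cells therefore cannot be told apart from the labels. NF-kB1 (p105, processed to p50) belongs to the NF-kB family of transcription factors, and imiquimod is a Toll-like receptor agonist that inflames mouse skin.

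MS4A proteins cross the membrane several times and keep both ends inside the cell. The best known are CD20, the product of Ms4a1 on B cells, and the beta chain of the high-affinity IgE receptor, the product of Ms4a2 on mast cells. Ms4a4b, also named Chandra, is an abundant transcript of mouse T cells. Its protein associates with the costimulatory receptor GITR, and forced expression in mouse T cells slows their division. Ms4a4c is known as an interferon-induced gene of mouse leukocytes, and Ms4a6b as a family member expressed in mouse T cells.

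The 3 genes are protein coding and lie in the family's cluster on chromosome 19, all on the plus strand, with Ms4a6c between Ms4a4b and Ms4a6b. In GRCm38 (RefSeq), Ms4a4c (Entrez 64380) spans 11404717 to 11427246, Ms4a4b (Entrez 60361) spans 11443558 to 11463549, and Ms4a6b (Entrez 69774) spans 11518559 to 11530403. Ms4a4b and Ms4a4c are close copies of each other, and so are Ms4a6b and its neighbour Ms4a6c. The 250 bases before the transcript start are shown because within each pair they are alike while the levels described further on are not. In the sequences that follow (RefSeq, GRCm38.p6, plus strand, 5′ to 3′), capitals mark bases identical to the other gene of the pair in their best local alignment. The windows are chr19:11443308-11443557 for Ms4a4b, chr19:11407411-11407660 for Ms4a4c, chr19:11518309-11518558 for Ms4a6b and chr19:11469118-11469367 for Ms4a6c. Each ends just before the 1 transcript start that the promoter table holds for the gene. For Ms4a4c and Ms4a6c that start lies inside the gene span given in the annotation, which begins earlier.
Ms4a4b: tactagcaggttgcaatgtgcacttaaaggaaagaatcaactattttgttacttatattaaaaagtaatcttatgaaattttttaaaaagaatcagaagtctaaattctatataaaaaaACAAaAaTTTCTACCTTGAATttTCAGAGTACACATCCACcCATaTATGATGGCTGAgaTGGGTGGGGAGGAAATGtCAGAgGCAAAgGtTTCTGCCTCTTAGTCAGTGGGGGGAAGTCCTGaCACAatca
Ms4a4c: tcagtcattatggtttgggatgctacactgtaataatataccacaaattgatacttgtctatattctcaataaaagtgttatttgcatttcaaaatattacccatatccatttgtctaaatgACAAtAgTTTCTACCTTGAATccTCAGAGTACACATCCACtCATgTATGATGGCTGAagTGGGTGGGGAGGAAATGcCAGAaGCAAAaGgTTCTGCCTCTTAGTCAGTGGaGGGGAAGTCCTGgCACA
Ms4a6b: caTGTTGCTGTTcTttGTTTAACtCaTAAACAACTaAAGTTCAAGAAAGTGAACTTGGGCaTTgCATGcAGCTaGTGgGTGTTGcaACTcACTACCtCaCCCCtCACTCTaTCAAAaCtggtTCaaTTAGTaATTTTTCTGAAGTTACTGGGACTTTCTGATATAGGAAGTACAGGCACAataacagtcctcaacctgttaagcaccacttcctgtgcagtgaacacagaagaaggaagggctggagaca
Ms4a6c: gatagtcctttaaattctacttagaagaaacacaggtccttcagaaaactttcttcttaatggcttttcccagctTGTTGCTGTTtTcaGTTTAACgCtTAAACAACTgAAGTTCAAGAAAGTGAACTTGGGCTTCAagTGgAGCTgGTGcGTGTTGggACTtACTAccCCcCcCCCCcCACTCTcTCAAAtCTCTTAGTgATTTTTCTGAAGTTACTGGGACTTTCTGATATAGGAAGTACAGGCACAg

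The Ms4a4b and Ms4a4c windows matched in 114 of 128 aligned positions (89.1%), all within 131 bases of the start. Those of Ms4a6b and Ms4a6c matched in 152 of 182 aligned positions (83.5%). The aligned stretch lies 248 to 71 bases before the start in Ms4a6b and 175 to 2 in Ms4a6c, so equal distances from the 2 starts are not aligned bases. Between Ms4a4b and Ms4a6b the best match was 17 positions long. Both strands of each window were searched for short patterns, and for each the share of 32817 mouse promoter windows of the same length that hold it is given. The interferon-type pattern GAAANNGAA (7.12% of windows) stood in Ms4a6b, 206 to 198 bases before the start, and in Ms4a6c. The Ets-type pattern AGGAAG (29.5%) stood at 3 places in Ms4a6b, 1 of them on the opposite strand, and in Ms4a6c 17 to 12 bases before the start. The Runx-type pattern TGTGGT (14.04%) stood on the opposite strand of Ms4a4c. No match to the NF-kB consensus (3.90%) was found in the windows of Ms4a4b, Ms4a4c, Ms4a6b or Ms4a6c. In Ms4a4b none of the patterns was found. These matches describe letters in a short window.

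The table gives normalized read counts on a log2 scale. Here they are given without the log, as the normalized value. Libraries were shallow, with 20507 to 69454 estimated reads on genes. Wild-type imiquimod replicate 3 was the shallowest, and wild-type sham replicate 2 the deepest. The kit reads 1 fragment near the 3′ end of each transcript, so values of different genes can be set side by side without a length correction. Of 14 lines of a T cell identity list 10 were above 0, and the receptor genes Tcrd and Tcrg-C2 and the surface gene Thy1 were above 0 in all 12 libraries. The lines of the labelled chains themselves, Tcrg-V4 and Trdv4, and those of Tcrg-C1 and Trdc were at 0 in all 12, so the values do not show which receptor chains the cells carried. The test took the 1571 genes that averaged 5 or more over all libraries. Ms4a4b (mean 95.5) and Ms4a6b (mean 27.1) passed and Ms4a4c (mean 3.60) did not. The nearest genes on either side of the limit had means of 5.001 and 4.998.

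Ms4a4b was one of the most abundant transcripts of these cells, and it was lower in wild-type cells under imiquimod than in the other groups. Its normalized values were 109, 163 and 70.4 in the NF-kB1-deficient imiquimod group, and 33.5, 32.6 and 16.8 in the wild-type imiquimod group. They were 154, 142 and 122 in the NF-kB1-deficient sham group, and 110, 105 and 88.2 in the wild-type sham group. The 3 wild-type imiquimod libraries were the lowest of all 12 and overlapped with no other group. Ranked by normalized value within a library, Ms4a4b stood at 7 to 23 in the 9 other libraries, out of 2888 to 5182 genes above 0. In the wild-type imiquimod libraries it stood at 173, 154 and 757. By its mean over all libraries it was the 15th most abundant gene of the table. The values rest on 71.0 to 233 estimated reads in the 9 other libraries, and on 32, 31 and 8.5 reads in wild-type imiquimod replicates 1, 2 and 3.

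**Figure D1:**
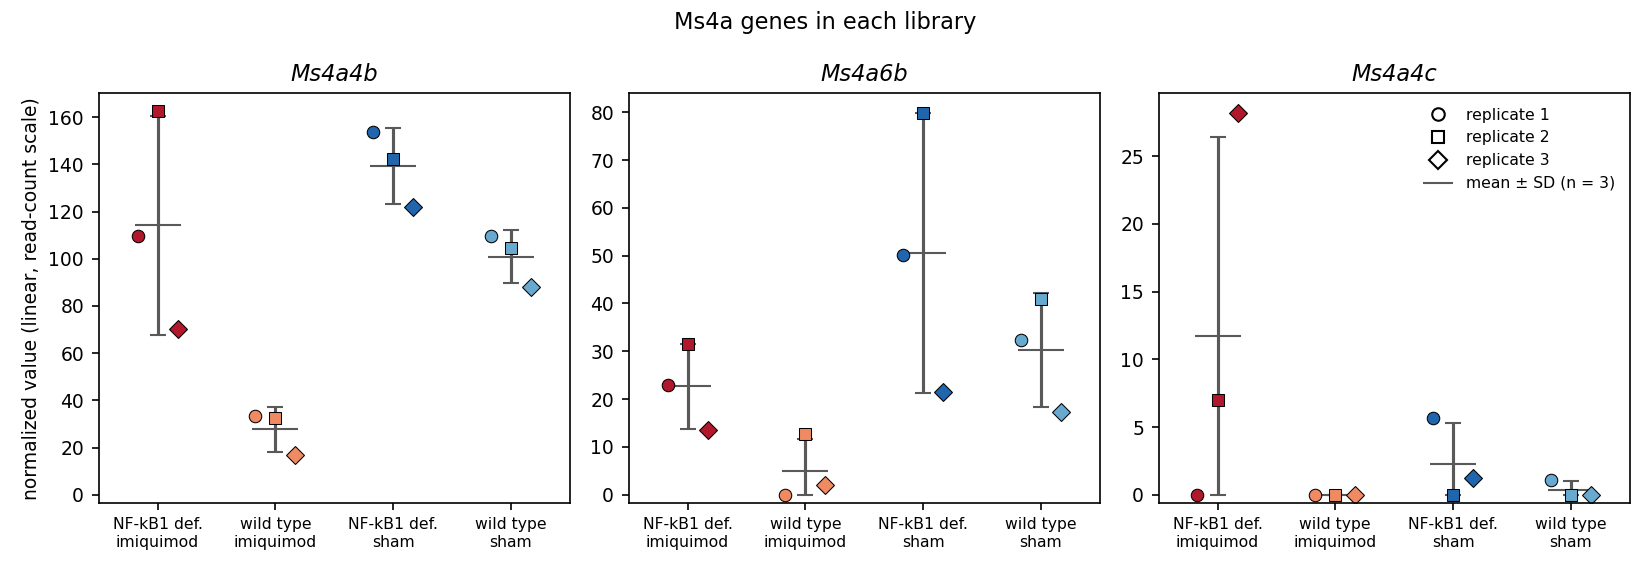
Normalized value (linear) of Ms4a4b, Ms4a6b and Ms4a4c in each of 12 libraries, with 1 symbol per library and grey bars for mean ± SD (n = 3 per group; lower bars stop at 0). In wild-type imiquimod libraries Ms4a4b lay between 16.8 and 33.5, below the 9 other libraries, and Ms4a4c was at 0.

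Ms4a6b was less abundant and was likewise lowest in wild-type cells under imiquimod. It stood at 23.0, 31.4 and 13.6 in the NF-kB1-deficient imiquimod group, and at 0, 12.6 and 1.98 in the wild-type imiquimod group. It stood at 50.1, 79.9 and 21.4 in the NF-kB1-deficient sham group, and at 32.4, 41.0 and 17.4 in the wild-type sham group. The wild-type imiquimod libraries were again the lowest 3 of 12, but by a small margin, since the 12.6 of replicate 2 lay just under the 13.6 of NF-kB1-deficient imiquimod replicate 3. Those 3 libraries held 0, 12 and 1 estimated reads of Ms4a6b, so the level in this group rests on 13 reads in all. The other groups held 112 reads (NF-kB1-deficient imiquimod), 158 reads (NF-kB1-deficient sham) and 127 reads (wild-type sham).

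Ms4a4c was near the limit of detection and above 0 in 5 libraries. It was listed at 0, 6.99 and 28.2 in the NF-kB1-deficient imiquimod group and at 0 in all wild-type imiquimod libraries. It was listed at 5.66, 0 and 1.26 in the NF-kB1-deficient sham group and at 1.12, 0 and 0 in the wild-type sham group. Only NF-kB1-deficient imiquimod replicate 3 held more than 10 estimated reads of it (43.5), and all groups overlapped, except that the wild-type imiquimod libraries hold no value above 0. A listed 0 can hide 1 read in the 5 libraries where 1 read is worth less than 1. It can hide more than 1 read in wild-type sham replicate 2, where 1 read is worth 0.488. Ms4a4b thus exceeded Ms4a4c in all 12 libraries, although the promoter windows of this pair, shown before, are close copies in their last 131 bases.

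Reads of close copies cannot always be told apart, which limits the low values of Ms4a4c most. Of 1747 different stretches of 50 bases in the annotated Ms4a4c transcripts (GENCODE M21), 135 also occur in Ms4a4b transcripts, 127 of them within 500 bases of a transcript end, where this kit reads. Ms4a4b has 8821 such stretches, and Ms4a6b has 4561, of which 117 occur in Ms4a6c and 40 in Ms4a6d. In estimated reads, Ms4a4b was not at a whole number in 6 of 12 libraries, Ms4a4c in 2 and Ms4a6b in 1. In NF-kB1-deficient imiquimod replicate 3, Ms4a4b stood at 108.5 and Ms4a4c at 43.5 reads, and together they made 152. How the authors assigned reads that match more than 1 gene is not given in the sources used here, so the share of Ms4a4b reads counted for Ms4a4c was not tested.

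In NF-kB1-deficient mice neither tested gene was called between imiquimod and sham. These 6 libraries are not in the wild-type contrast, although both contrasts share the filter and the estimate of spread. Ms4a4b averaged 114 ± 46.4 under imiquimod and 139 ± 15.96 under sham (SD, n = 3 each). On the log2(value + 1) scale the difference was -0.36 ± 0.35 (SE; limma adjusted p = 0.996), with a 95% interval from -1.06 to 0.34. Ms4a6b averaged 22.7 ± 8.91 under imiquimod and 50.5 ± 29.3 under sham, a difference of -1.01 ± 0.74 (adjusted p = 0.996; interval -2.46 to 0.45). The groups overlapped for both genes. Both intervals include 0 and also sizeable decreases, so the data do not show that the level stayed the same. Limma called 0 of 1571 genes in this comparison (0% called), with 53 at an unadjusted p under 0.05, and groups did not overlap in 11.7% of tested genes.

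In wild-type mice both tested genes fell under imiquimod, the change for which they were picked. Ms4a4b averaged 27.7 ± 9.39 under imiquimod and 101 ± 11.3 under sham, a difference of -1.89 ± 0.35 on the log2(value + 1) scale (3.69-fold lower). Ms4a6b averaged 4.87 ± 6.79 under imiquimod and 30.3 ± 11.95 under sham, a difference of -3.10 ± 0.74 (8.60-fold lower). Adding 1 shrinks changes of low values, yet a library at 0 weighs heavily in a mean of logs. For Ms4a6b the fold on this scale is larger than the plain means, 4.87 and 30.3, would give. The size for Ms4a6b depends on the pseudocount, at -4.37 with 0.1 and -1.48 with 10. Without wild-type imiquimod replicate 1 it was -2.21 and not called. In the main fit both genes were called and their groups did not overlap. The choice by this change favours both outcomes, so the calls are no test of it. Over all tested genes, 3.25% were called, 26 higher and 25 lower (19 and 29 with equal library totals, 47 and 25 with a pseudocount of 10). Calls of a decrease made up 1.59% of tested genes. Groups did not overlap in 21.5%, and in 10.8% imiquimod was lower without overlap. Of the 1571 fold changes, 191 were lower than that of Ms4a4b and 23 lower than that of Ms4a6b. In bulk RNA, fewer cells that express a gene and less RNA per cell cannot be told apart.

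**Figure D2:**
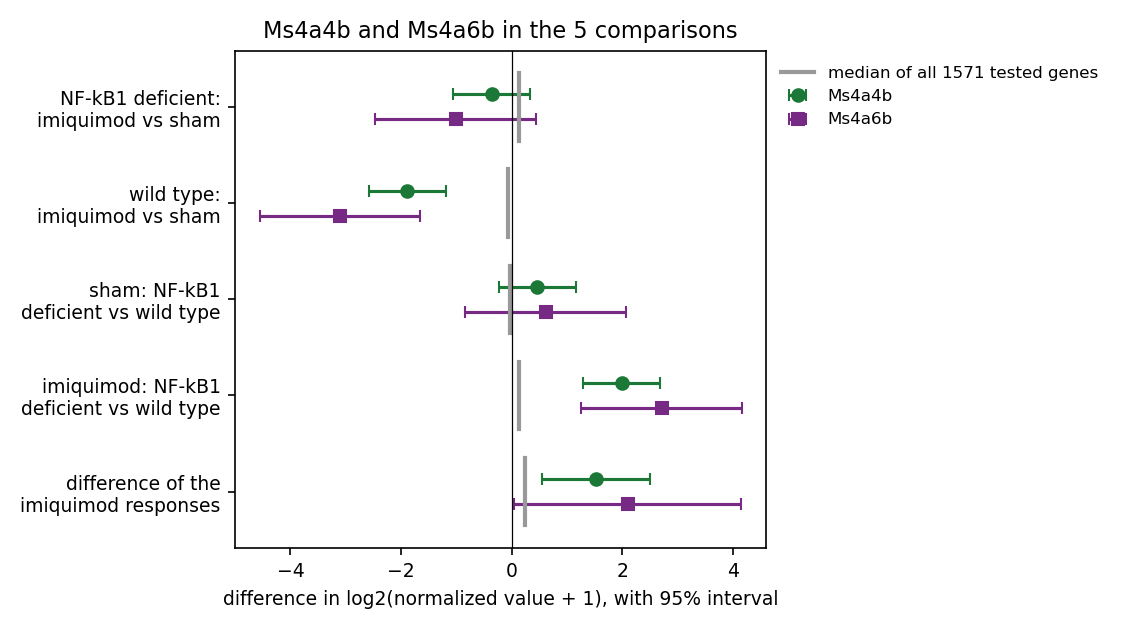
Difference in log2(normalized value + 1) for Ms4a4b and Ms4a6b in 5 comparisons with 95% intervals (horizontal axis), beside the median of all 1571 tested genes (grey). The differences were -1.89 and -3.10 in wild-type mice and -0.36 and -1.01 in NF-kB1-deficient mice, where both intervals include 0.

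Under imiquimod, NF-kB1-deficient cells had more of both transcripts than wild-type cells. This comparison shares the wild-type imiquimod libraries with the one for which the genes were picked, so its values too are a description. Ms4a4b averaged 114 ± 46.4 in NF-kB1-deficient and 27.7 ± 9.39 in wild-type libraries, a difference of 1.99 ± 0.35 on the log2(value + 1) scale (3.97-fold higher). Ms4a6b averaged 22.7 ± 8.91 in NF-kB1-deficient and 4.87 ± 6.79 in wild-type libraries, a difference of 2.71 ± 0.74. Both were called and neither overlapped between genotypes, which the choice by the shared wild-type libraries favours. Of all tested genes 1.78% were called, 20 higher (1.27%) and 8 lower (25 and 5 with equal library totals, 11 and 17 with a pseudocount of 10). Genotypes did not overlap in 21.1%, and in 10.8% NF-kB1-deficient libraries were higher without overlap. The call of Ms4a6b was lost without NF-kB1-deficient imiquimod replicate 1 (2.66) or 2 (2.45), wild-type imiquimod replicate 1 (1.82) or NF-kB1-deficient sham replicate 1 (2.71).

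Under sham cream, where the wild-type libraries are again shared, neither gene was called between genotypes. Ms4a4b averaged 139 ± 15.96 in NF-kB1-deficient and 101 ± 11.3 in wild-type libraries. The difference was 0.46 ± 0.35 on the log2(value + 1) scale, with a 95% interval from -0.24 to 1.16, although all 3 NF-kB1-deficient libraries were above all 3 wild-type ones. For 9.36% of tested genes the groups did not overlap in this comparison, and for 4.71% the NF-kB1-deficient group was the higher one. Ms4a6b averaged 50.5 ± 29.3 in NF-kB1-deficient and 30.3 ± 11.95 in wild-type libraries, a difference of 0.61 ± 0.74 with overlapping groups. Limma called 0 of 1571 genes (0%), with 96 at an unadjusted p under 0.05.

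A call in wild-type and none in NF-kB1-deficient mice does not show that the imiquimod responses differ. The difference of the responses holds the wild-type values by which the genes were chosen, so it too is a description. The response in NF-kB1-deficient minus that in wild-type mice was 1.53 ± 0.50 on the log2(value + 1) scale for Ms4a4b and 2.10 ± 1.04 for Ms4a6b. Neither was called, and 0.446% of tested genes were, 3 higher and 4 lower (6 and 4 with equal library totals). The value for Ms4a4b stayed positive whichever library was left out, between 1.21 and 1.83, and that for Ms4a6b between 1.21 (without wild-type imiquimod replicate 1) and 3.09 (without wild-type imiquimod replicate 2). With a pseudocount of 10 the value for Ms4a6b was 0.69, and with 0.1 it was 3.33.

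Set in order of their mean, the groups ran differently for the members. For Ms4a4b the order was NF-kB1-deficient sham, NF-kB1-deficient imiquimod, wild-type sham and wild-type imiquimod. Of neighbours in this order only wild-type sham and wild-type imiquimod did not overlap. For Ms4a6b it was NF-kB1-deficient sham, wild-type sham, NF-kB1-deficient imiquimod and wild-type imiquimod, and only the last pair did not overlap. Within a library, Ms4a4b exceeded Ms4a6b throughout. The ratio of the normalized values was 4.75, 5.18 and 5.17 in the NF-kB1-deficient imiquimod group, and 2.58 and 8.5 in wild-type imiquimod replicates 2 and 3. Wild-type imiquimod replicate 1 has no ratio, since Ms4a6b was at 0 there, and the 8.5 rests on 1 estimated read of Ms4a6b. It ran from 1.78 to 5.71 in the NF-kB1-deficient sham group and from 2.56 to 5.07 in the wild-type sham group. The ratios that could be formed overlapped between groups. As a difference of log2(value + 1), the balance was 5.11, 1.30 and 2.58 in wild-type imiquimod replicates 1, 2 and 3. It was 0.82 to 2.46 in the other groups. Whether the balance differed in the wild-type imiquimod group is thus not settled.

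The rest of the family was scarce. Of 18 other family genes that were looked up and have a line, 13 were listed at 0 in all 12 libraries and none reached a mean of 5. The 13 include Ms4a1 (CD20), Ms4a2 (IgE receptor beta chain), Ms4a3, Ms4a4a and Ms4a7. Ms4a6c, the close copy of Ms4a6b, was above 0 in 4 libraries. It stood at 4.01 in NF-kB1-deficient imiquimod replicate 1, at 11.3 and 8.76 in NF-kB1-deficient sham replicates 1 and 2, and at 4.88 in wild-type sham replicate 2. Ms4a6d was above 0 in NF-kB1-deficient imiquimod replicates 1 and 2 (1.502 and 3.14), and Ms4a4d in NF-kB1-deficient sham replicate 1 (5.88). None of these 3 genes was above 0 in a wild-type imiquimod library. Of the distant relatives Tmem176a and Tmem176b, which IL-17-producing lymphocytes of mice express, Tmem176a was above 0 in 5 libraries (highest 3.68) and Tmem176b in 8. Tmem176b stood at 3.25, 2.10 and 2.59 in the NF-kB1-deficient imiquimod group and at 0, 5.26 and 3.96 in the wild-type imiquimod group. It stood at 0, 7.12 and 0 in the NF-kB1-deficient sham group and at 0, 11.2 and 12.4 in the wild-type sham group, with overlapping groups.

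**Figure D3:**
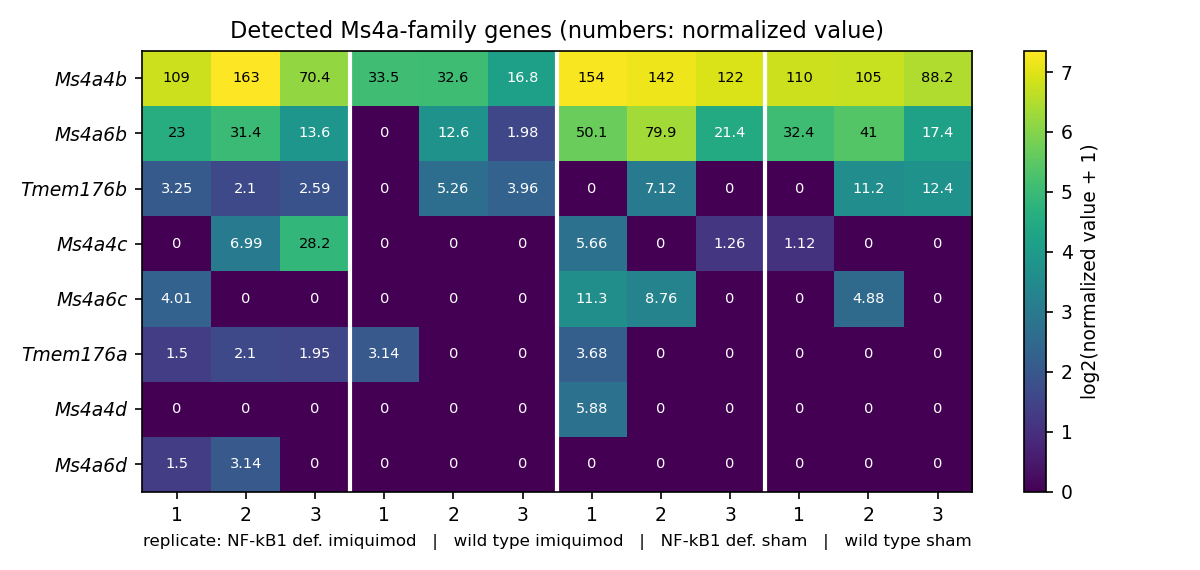
Normalized value (printed in each cell) of the 8 detected MS4A-family genes in 12 libraries, coloured by log2(normalized value + 1). Ms4a4b is above 0 in all libraries and Ms4a6b in 11, while Ms4a4d appears in 1 library (5.88).

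Most genes around the members were listed at 0. Within 500 kb of the 3 genes, 67 other genes are annotated, 61 have a line and 13 were above 0 in any library. Tested were only Prpf19, a splicing factor gene, and AW112010, an interferon-gamma-induced transcript of mouse immune cells. On the log2(value + 1) scale, imiquimod against sham gave -0.36 in NF-kB1-deficient and 0.48 in wild-type mice for Prpf19. For AW112010 it gave -0.13 in NF-kB1-deficient and -1.43 in wild-type mice. Neither was called in wild-type mice (limma adjusted p = 0.869 and 0.502). 

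The genes most like each member were taken by the mean absolute difference of log2(value + 1), each gene centred on its own mean over the 12 libraries. For Ms4a4b these were the nuclear RNA Malat1 (0.35 log2 units per library), the MHC class I gene H2-K1 (0.38), Gm4070 (0.40), the anchoring protein gene Akap13 (0.41) and the interferon-gamma receptor gene Ifngr1 (0.45). The median of all tested genes was 1.20. For Ms4a6b they were the chemokine receptor gene Ccr9 (0.64), the forkhead factor gene Foxp1 (0.64), the actinin gene Actn1 (0.64), the inhibitory receptor gene Vsir (0.66) and Ms4a4b itself (0.68), against a median of 1.55. Ms4a6b in turn was the 93rd nearest gene to Ms4a4b. Ccr9 averaged 23.7 in the NF-kB1-deficient imiquimod, 5.18 in the wild-type imiquimod, 19.3 in the NF-kB1-deficient sham and 29.8 in the wild-type sham group. Foxp1, which helps keep T cells quiescent, averaged 36.5 in the NF-kB1-deficient imiquimod, 10.5 in the wild-type imiquimod, 38.1 in the NF-kB1-deficient sham and 28.8 in the wild-type sham libraries.

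**Figure D4:**
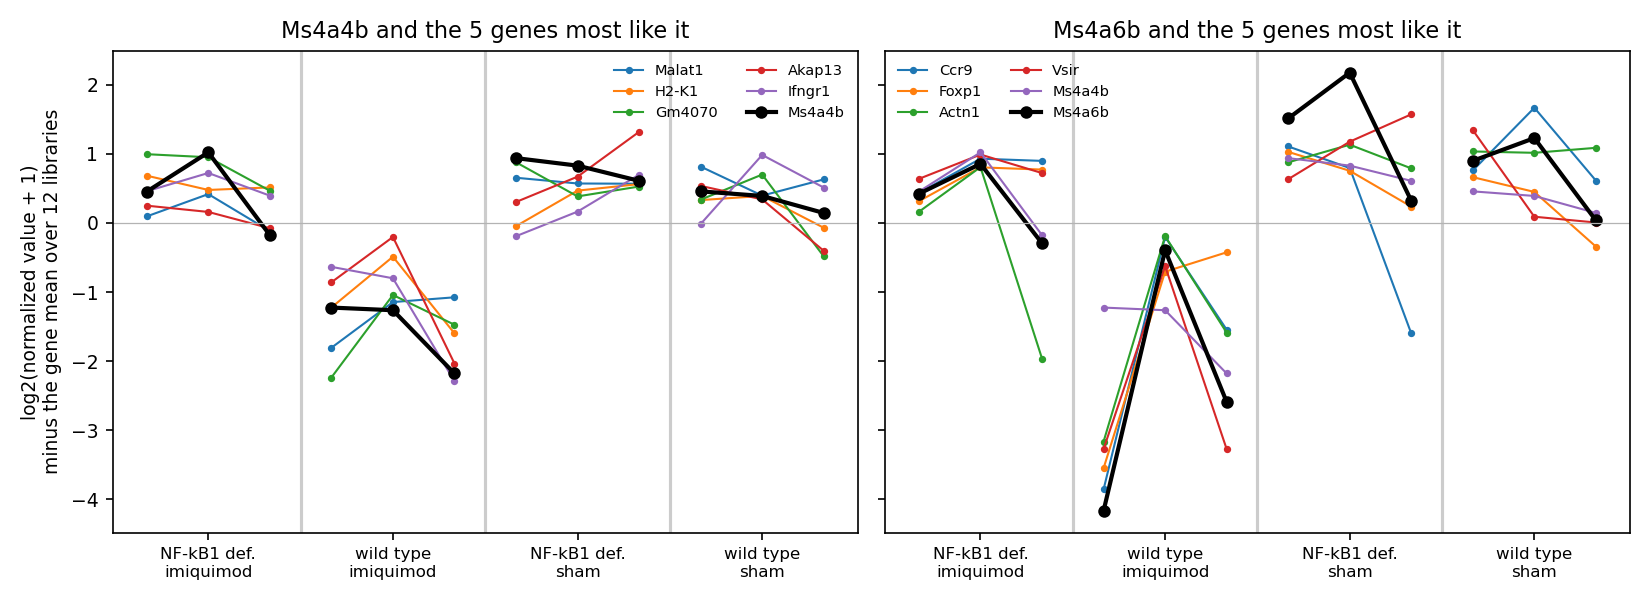
Log2(normalized value + 1) minus the mean of each gene over 12 libraries, for Ms4a4b and Ms4a6b (black) and the 5 genes nearest to each; lines join the libraries of 1 group only. In wild-type imiquimod libraries both members and the genes near them lie below their own means, which the choice by likeness favours.

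Tnfrsf18, the gene for GITR, with which the Ms4a4b protein associates, was too low to test. It was above 0 in 6 libraries, with 7.35 the highest. It stood at 4.01, 0 and 5.84 in the NF-kB1-deficient imiquimod group and at 0 in all wild-type imiquimod libraries. It stood at 7.35, 6.57 and 0 in the NF-kB1-deficient sham group and at 1.12, 3.90 and 0 in the wild-type sham group. Of 27 costimulatory and TNF receptor family genes 3 were tested. In wild-type mice 1 of them was called lower, beside 1.59% of all tested genes, and none higher (list median 1.15, median of all genes -0.07). That gene is Cd27, the receptor of CD70, at 4.82 ± 1.30 under imiquimod and 43.7 ± 17.9 under sham (-2.89 ± 0.66; limma adjusted p = 0.00274). Icos was at 20.6 ± 2.39 under imiquimod and 3.06 ± 5.31 under sham and was not called (adjusted p = 0.0835). In NF-kB1-deficient mice 0 of the 3 were called.

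Of 24 tetraspanins and other membrane proteins of like build, 8 were tested and 0 were called in any comparison. Their median in wild-type mice was -0.72 on the log2(value + 1) scale, with 6 of 8 negative, beside -0.07 for all genes. The lowest p of the 8 was that of Cmtm7, which was higher, at 10.4 ± 7.42 under imiquimod and 1.20 ± 1.24 under sham (2.29 ± 1.21, limma adjusted p = 0.275). Laptm5, a lysosomal membrane protein gene of leukocytes, was at 33.3 ± 23.9 under imiquimod and 54.1 ± 22.4 under sham (-0.81 ± 0.46, limma adjusted p = 0.320).

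Of the type I interferon response, to which Ms4a4c belongs in mouse leukocytes, 8 of 28 listed genes were tested. In wild-type mice 2 of the 8 were called lower, beside 1.59% of all tested genes, and 0 higher. The fold changes of all 8 were negative (median -2.07, median of all genes -0.07). These were Sp100, a nuclear body protein gene, at 1.01 ± 0.99 under imiquimod and 35.7 ± 31.5 under sham (limma adjusted p = 0.00338), and Ifi203, at 7.48 ± 8.13 under imiquimod and 41.2 ± 31.7 under sham (adjusted p = 0.0423). In NF-kB1-deficient mice 3 of the 8 were negative and 0 were called (median 0.13, beside 0.14 for all genes).

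Genes of the CD27 and type 1 program, which marks the interferon-gamma-producing branch of gamma delta T cells, gave a like count. All 7 tested of 19 were negative in wild-type mice (median -1.82, median of all genes -0.07). Called lower was 1 of the 7, beside 1.59% of all tested genes. It is Cd27, the same call as in the costimulatory list. In NF-kB1-deficient mice 3 of 7 were negative and 0 were called (median 0.07, beside 0.14 for all genes). Of 23 genes of the IL-17 program 5 were tested, 3 of them negative and 2 positive in wild-type mice (median -0.36) and 0 called. Icos, which this list also holds, had the lowest p of the 5 and was higher under imiquimod (3.31 ± 1.14, limma adjusted p = 0.0835). Il7r, the IL-7 receptor gene, was at 8.01 ± 5.25 under imiquimod and 37.5 ± 28.7 under sham (adjusted p = 0.103 by limma).

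Between genotypes under imiquimod, 0 genes of these lists were called lower in NF-kB1-deficient libraries. Called higher were Cd27 in both lists that hold it, 2 of 8 interferon genes, 0 of 8 tetraspanins and like proteins, and Il7r of the IL-17 list, beside 1.27% of all tested genes. Of the interferon genes named before, Sp100 was called here (limma adjusted p = 0.0339) and Ifi203 was not (1.40, adjusted p = 0.396). Il7r averaged 37.2 ± 10.5 in NF-kB1-deficient and 8.01 ± 5.25 in wild-type libraries (2.31 ± 0.67; limma adjusted p = 0.0459). Under sham no gene of these lists was called between genotypes.

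Other cells could carry Ms4a transcripts into a library. B cell markers were at 0 in 11 libraries, with Ms4a1 and Cd79a at 0 in all, and the mast cell and granulocyte list was at 0 throughout. The macrophage, monocyte and dendritic cell list, 8 of 24 genes above 0, summed to 5.63 to 16.6 in NF-kB1-deficient imiquimod and 0 to 4.72 in wild-type imiquimod libraries. It summed to 2.33 to 13.2 in NF-kB1-deficient sham and 0 to 6.83 in wild-type sham libraries, with Lyz2, Csf1r and Adgre1 at 0 in all. The list includes Ms4a6c and Ms4a6d, close copies of Ms4a6b, and Ms4a6c alone made 11.3 of the 13.2 and 4.88 of the 6.83. The alpha beta T cell list, 4 of 10 genes above 0, summed to 84.6 to 90.3 in NF-kB1-deficient imiquimod and 60.6 to 85.4 in wild-type imiquimod libraries. It summed to 88.0 to 109 in NF-kB1-deficient sham and 78.6 to 110 in wild-type sham libraries, most of it Tcrb, with Cd4, Foxp3 and Cd40lg at 0. Its ranges overlap between imiquimod and sham, and its part in the Ms4a levels was not tested. Of the NK cell list 3 of 8 genes were above 0, mainly Nkg7, and the list summed to 19.3 to 29.3 in NF-kB1-deficient imiquimod and 2.10 to 9.47 in wild-type imiquimod libraries. It summed to 13.8 to 53.4 in NF-kB1-deficient sham and 5.59 to 17.5 in wild-type sham libraries, and its part was not tested. Plasma cell markers, 6 of 8 above 0, summed to 2.25 to 21.7 in NF-kB1-deficient imiquimod and 6.93 to 23.8 in wild-type imiquimod libraries. They summed to 0 in NF-kB1-deficient sham and 0 to 6.21 in wild-type sham libraries. The sums were thus higher under imiquimod without overlap in both genotypes, and the part of these genes in the Ms4a levels was not tested. In wild-type imiquimod replicates 1, 2 and 3, Prdm1 stood at 6.81, 8.42 and 6.93 and Xbp1 at 14.7, 6.32 and 0. Irf4 stood there at 2.27, 6.32 and 0, and Sdc1 at 0, 1.05 and 0. Jchain and Mzb1 were above 0 only in NF-kB1-deficient imiquimod replicate 3 (7.14 and 4.54), and Tnfrsf17 and Derl3 in no library. Keratinocyte and stromal markers summed to at most 21.1, reached in wild-type sham libraries. Tcrd, the receptor chain of the labelled cells, stood at 62.8, 53.5 and 58.9 in the NF-kB1-deficient imiquimod group and at 14.1, 30.5 and 19.8 in the wild-type imiquimod group. It stood at 72.8, 66.1 and 40.3 in the NF-kB1-deficient sham group and at 65.8, 68.7 and 76.8 in the wild-type sham group, so it was lowest in the same 3 libraries as Ms4a4b and its part was not tested. The T cell identity list, which holds Tcrd, summed to 170 to 207 in NF-kB1-deficient imiquimod and 94.7 to 139 in wild-type imiquimod libraries. It summed to 127 to 275 in NF-kB1-deficient sham and 174 to 204 in wild-type sham libraries. Lck stood at 1.05, 0 and 6.93 in wild-type imiquimod libraries, below all others. Thy1 stood at 49.3, 28.7 and 31.7 there and at 33.5, 28.4 and 16.1 in wild-type sham libraries. The part of this list was not tested.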

How the data were processed

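Per the labels' protocols, RNA of 12 samples was extracted with Trizol and libraries were made with a QuantSeq 3′ kit (FWD). The submitters' processing notes name mm10. Aligner, counter and normalization tool: not given in the sources used here. As values, the authors deposited log2 values of normalized read counts, 1 column per library, matched by title. Values above 0 were taken back to the linear scale. The value of 1 read (0.488 to 1.98) was estimated per library from the steps of the 10 commonest low values. Under 20 reads, 71.2% to 80.2% of values were whole to within 0.01 read, so no count test was run, and reads are estimates.

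Tests used limma 3.58.1 in R 4.3.3 on log2(normalized value + 1), with 1 coefficient per group in 1 fit of all 12 libraries, eBayes with trend and robust, and Benjamini-Hochberg adjustment over 1571 genes with a mean of at least 5. The threshold for a call was an adjusted p of 0.05. Standard errors (SE) are moderated (8 residual and a median of 145 prior degrees of freedom). The code was tested on simulated data. Nothing in the labels says that replicates are separate animals. The p-values thus reflect only how these samples vary, which may be technical. Deviations of same-numbered libraries correlated weakly (0 of 18 pairs over 0.1), yet 9 of 12 libraries correlated best with 1 of their own number. Whether replicate numbers mark pairs or batches is thus not settled, and the main fit did not use them. Members, lists and naming rules were chosen with earlier results of these data known. The rule names the 3 members, family genes above 0, the 5 nearest genes, tested neighbours and up to 3 genes per list by lowest p; further genes (Tnfrsf18, marker genes and family genes at 0) were named after their values were seen, and some genes of the rule are not printed. Promoters and transcripts came from RefSeq (GRCm38.p6) and GENCODE M21, aligned with Biopython 1.88. Ms4a4c was under the filter and has no test; alternatives changed the pseudocount, filter, scaling, moderation, libraries and block.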

Additional observations from a re-analysis of the deposited data

How the results depend on the processing

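For Ms4a4b and Ms4a6b the direction held in all 5 comparisons under all 19 or 20 alternatives. Their calls in wild-type mice and between genotypes under imiquimod rest on values by which they were chosen, and are a description only. Without trend and robust, calls were lost for Ms4a4b in wild-type mice (-1.89) and between genotypes under imiquimod (1.99), and for Ms4a6b in both (-3.10 and 2.71). Ms4a6b also lost its call in wild-type mice with no filter (-3.10) and in a fit of those 6 libraries alone (-3.10). Between genotypes under imiquimod it lost it with a pseudocount of 0.1 (3.96) or 10 (1.19), with no filter (2.71) and in 6 libraries alone (2.71). For the calls lost without trend and robust, with no filter and in 6 libraries, the estimate was unchanged and the SE was larger. Without trend and robust the SE was 0.66 for Ms4a4b (0.35 in the main fit) and 0.93 for Ms4a6b (0.74 in the main fit). The SE and intervals given thus depend on the moderation. No cause beyond this was tested. Leaving out 1 library gave -4.10 to -2.21 for Ms4a6b in wild-type mice and 1.82 to 3.70 between genotypes under imiquimod, and -2.05 to -1.57 and 1.68 to 2.29 for Ms4a4b, which stayed called. In NF-kB1-deficient mice it gave -0.65 to -0.05 for Ms4a4b (without imiquimod replicates 2 and 3) and -1.52 to -0.59 for Ms4a6b (without sham replicates 3 and 2). Between genotypes under sham it gave 0.37 to 0.55 for Ms4a4b and 0.20 to 1.12 for Ms4a6b (without NF-kB1-deficient sham replicates 2 and 3). None of these was called. Ms4a4c, tested only with no filter, was not called in any comparison.

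Called genes in wild-type mice numbered 51, against 26 with a pseudocount of 0.1, 11 with no filter, 18 without trend and robust, 28 in 6 libraries and 26 to 73 without 1 library (28 without wild-type imiquimod replicate 1, 26 without wild-type sham replicate 3). Between genotypes under imiquimod they numbered 28, against 18, 3 and 0 in the first 3 of these settings and 4 to 42 without 1 library (10, 4 and 9 without NF-kB1-deficient imiquimod replicate 1, 2 and 3, and 18 without NF-kB1-deficient sham replicate 1). For the difference of responses they numbered 7, against 13 with a mean of at least 20, 1 with no filter, 0 without trend and robust and 2 to 12 without 1 library (4 without NF-kB1-deficient imiquimod replicate 2, 12 and 2 without wild-type imiquimod replicates 2 and 3, 2 without NF-kB1-deficient sham replicate 3). In NF-kB1-deficient mice 1 was called in 6 libraries alone, and under sham 1 without NF-kB1-deficient sham replicate 1 (0 to 1 without 1 library).

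A pseudocount of 10 moved the median of all genes by -0.11 in NF-kB1-deficient mice, -0.17 between genotypes under imiquimod and -0.25 for the difference of responses, and 0.1 by 0.18 and 0.30 in the last pair. Equal library totals moved the median of all genes by -0.17 in wild-type mice, 0.20 between genotypes under imiquimod and 0.18 for the difference of responses. With the replicate block, 55 genes were called in wild-type mice and 32 between genotypes under imiquimod, and no call of a member changed; 9 of 12 libraries correlated best with their own number. Depth limits Ms4a4c and the low values of Ms4a6b.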
